A study of Mus musculus with 4 samples.

Results

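Collagens are the main structural proteins of the extracellular matrix. Their chains wind around each other into a helix inside the cell, are secreted, and assemble outside it into fibrils, networks or filaments. Fibroblasts make most of the fibrillar chains of a tumour's stroma, while the type IV chains form the sheet under vessels and epithelia. Collagen genes were examined in tumours that MDA-MB-231 cells, from a human triple-negative breast cancer, formed in immunodeficient mice. There were 2 samples from dosing at 40 mg/kg/day with sunitinib, an inhibitor of the VEGF and PDGF receptor kinases, and 2 vehicle samples, with no statement of whether those of a group came from separate animals. The line and the kind of host were common to both groups, while the sources used here name no strain, sex or age of the mice and no time since the last dose. Signal on these mouse arrays comes from host cells and from human transcripts that bind a mouse probe, and each of 2 slides held 1 sunitinib and 1 vehicle array.

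The collagen genes were all those whose single platform gene symbol had the form of a collagen chain name, and they numbered 42 of the 19087 named genes. They were covered by 101 of 45220 features, which gave 83 probes once the copied spots of Col1a1 and Col2a1 had been combined. Of the 42 genes, 11 were fibrillar, 8 belonged to basement membranes, 4 to the beaded filaments, 9 to the FACIT chains that sit on fibrils, and 10 were of other kinds. Col6a3 and Col6a5 are not analysed here. Each gene is given by its brightest probe below 15.95 on every array (log2), the value taken as saturated, and 23 of the 42 lay above 9.08, the median of all genes. Levels are log2 intensities and differences are sunitinib minus vehicle on that scale.

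Xist, the RNA of the inactive X chromosome of female cells, was at 8.97 and 8.96 in sunitinib samples, against 12.19 and 12.26 in vehicle samples, and Eif2s3y, a gene of the Y chromosome, was at 10.21 and 10.02 in sunitinib samples, against 8.46 and 8.58 in vehicle samples. The sex of the host cells and the treatment therefore cannot be told apart in any difference given here. Xist was the 1 probe called among 43172 in limma (0.00232%, adjusted p under 0.05), and 0 probes were called with the slide as a replicate block or without any 1 array. Fibroblast markers were all above the median of all genes, in 10 of 10 cases, while 7 of 8 cartilage and bone markers were not. The quartiles of the arrays agreed to within 0.02.

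None of the collagen probes passed, with 0 of 83 called in limma and a smallest adjusted p of 0.352. At an unadjusted p under 0.05, 9 of the 79 unsaturated collagen probes were lower with sunitinib, where 5.73% of all unsaturated probes were, and 2 were higher, where 7.74% of all were. By gene, 5 of 42 were lower at that level (6.34% of all unsaturated genes, and 7.72% of those above the median of all genes) and 2 were higher (8.46%). Among the 23 genes above the median of all genes, 14 were lower on both slides and 1 was higher on both, against 27.6% and 35.3% of the 9522 genes above that median. The median difference of the 23 was -0.235, against 0.015 for those 9522. In 10 of the 23 both sunitinib arrays lay below both vehicle arrays (22.3% of all such genes), and in 1 they lay above them (28.8%). Over all 42 genes the median was -0.06, with 19 lower on both slides (28.0% of all 19048 unsaturated genes), 5 higher on both (32.1%) and 18 split.

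Vehicle replicate 1 weighed on these counts. Of the 23 genes, 17 read highest on that array, which held the highest value for 26.9% of all genes above the median. Within the vehicle group the 23 genes read 0.27 higher at the median in replicate 1 than in replicate 2, and 0.05 higher in sunitinib replicate 1 than in sunitinib replicate 2. Without vehicle replicate 1 the median difference shrank to -0.035, with 14 of 23 genes below 0, where 44.7% of all genes above the median were. Without vehicle replicate 2 it was -0.42, with 20 of 23 below 0. Leaving out a sunitinib array gave -0.27 (replicate 1) and -0.17 (replicate 2).

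**Figure D1:**
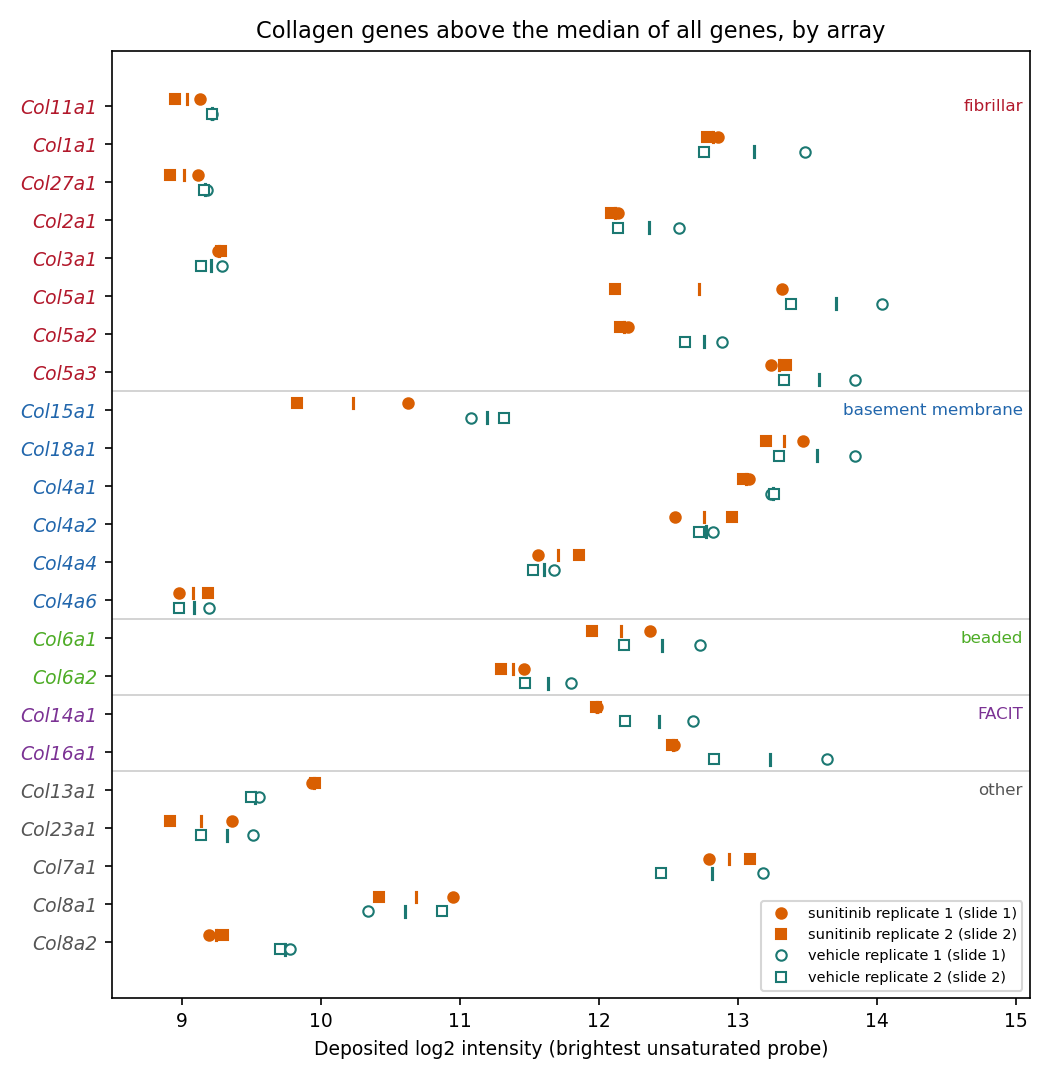
Deposited log2 intensity of the 23 collagen genes above the median of all genes (x axis), with filled sunitinib and open vehicle points, circles for slide 1, squares for slide 2 and short bars for group means (n = 2 each). Vehicle replicate 1 is the rightmost point for 17 genes. Levels are not comparable between probes of different genes.

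Fibrillar chains build the banded fibrils that give tissue its tensile strength. Of the 11 genes, 6 were lower on both slides and 0 were higher on both, with a median difference of -0.18 (-0.42 on slide 1 and -0.04 on slide 2). That median was -0.025 without vehicle replicate 1 and -0.295 without vehicle replicate 2. The main chains could not be followed on their brightest probes. Col1a2, a chain of type I collagen, read 16 on all 4 arrays, and Col3a1, the chain of type III collagen, read 15.94 on both sunitinib arrays, against 15.94 and 15.97 with vehicle. The remaining probes of these genes lay near the floor, at 8.64 to 8.72 for Col1a2 and 8.26 to 9.29 for Col3a1.

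Col1a1, the other chain of type I collagen, had 1 single-spot probe in the measurable range. It read 12.86 and 12.78 in sunitinib samples, against 13.48 and 12.76 in vehicle samples, a difference of -0.30 (SE 0.24, n = 2 per group, limma adjusted p = 0.588). Vehicle replicate 1 stood apart and the other 3 arrays lay within 0.10, so the groups overlapped. The copied probe of Col1a1, in 10 spots, had medians of 15.985 and 15.935 in sunitinib samples, against 15.995 and 16 in vehicle samples, at the ceiling of the scale.

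Type V collagen controls the width of type I fibrils, and all 3 of its chains were measured. Col5a2 read 12.21 and 12.15 in sunitinib samples, against 12.89 and 12.62 in vehicle samples, with no overlap. Its difference was -0.575 (SE 0.12, 95% interval -0.88 to -0.27, limma adjusted p = 0.352), and -0.68 and -0.47 on slides 1 and 2. Leaving out any 1 array kept it between -0.71 and -0.44.

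Col5a1, the partner of Col5a2 in the commonest form of type V, read 13.32 and 12.12 in sunitinib samples, against 14.04 and 13.38 in vehicle samples. Its difference of -0.99 (SE 0.44, adjusted p = 0.399) came from groups that did not overlap. It was -0.39 without sunitinib replicate 2 and -1.59 without sunitinib replicate 1. Sunitinib replicate 2 was the low array, and the 81 bright features around this spot also read lower there, by a median of -0.96 on slide 2 (-0.16 on slide 1). With the position trend removed Col5a1 differed by -0.43. A second Col5a1 probe, at 8.91 to 9.28, differed by -0.125 (SE 0.14), with overlap. Col5a3, the third type V chain, read 13.24 and 13.35 in sunitinib samples, against 13.84 and 13.33 in vehicle samples (difference -0.29, SE 0.18, adjusted p = 0.501), where again vehicle replicate 1 alone stood apart.

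Col11a1, a chain of the cartilage fibril collagen type XI, lay close to the median of all genes, at 9.13 and 8.95 with sunitinib against 9.22 on both vehicle arrays (difference -0.18, SE 0.10, adjusted p = 0.447). Its partner Col11a2 lay at 8.78 to 9.01 and Col24a1, a minor fibrillar chain, at 8.13 to 8.92, among the dim genes. Col27a1, another minor fibrillar chain, differed by -0.15 (SE 0.10).

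Col2a1, the fibrillar chain of cartilage, had 10 spots scattered over the array that were taken as copies of 1 probe. If they are copies, they show how far a single spot can stray. The spot medians were 12.14 and 12.09 in sunitinib samples, against 12.58 and 12.14 in vehicle samples, a difference of -0.245 (SE 0.16, adjusted p = 0.515) that again lay on slide 1 (-0.44, against -0.05 on slide 2). Between the 10 spots the difference ran from -0.64 to 0.56 on slide 1 (SD 0.35) and from -1.43 to 0.58 on slide 2 (SD 0.59). On sunitinib replicate 2 a pair of spots read 10.76 and 11.32 while the highest read 12.17. The other Col2a1 probes, single spots at 9.36 to 9.49 and 8.64 to 8.74, differed by 0.03 and 0.045.

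**Figure D2:**
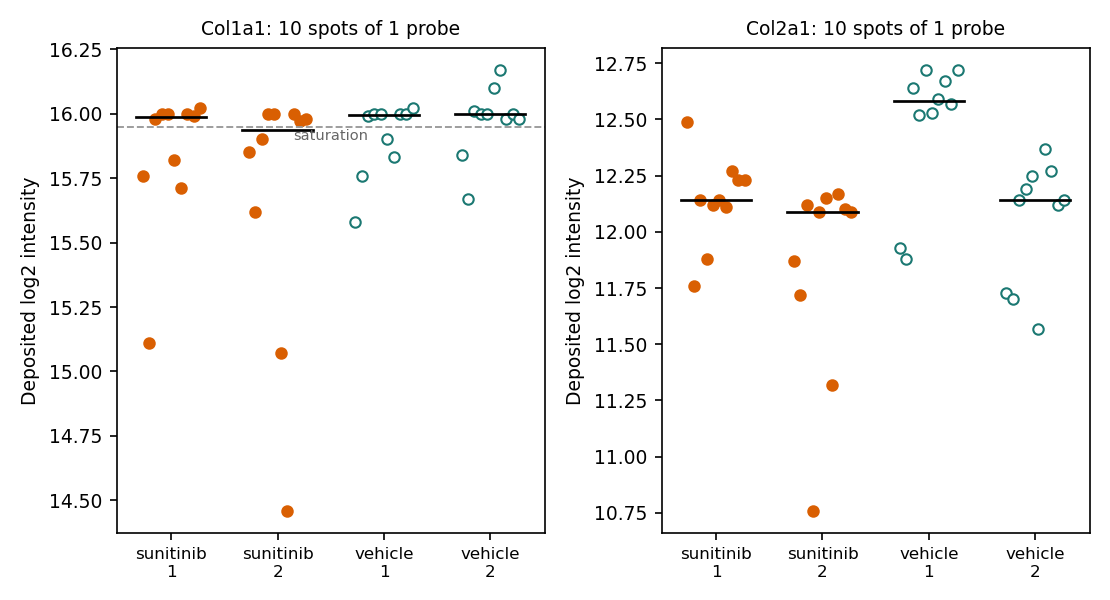
Deposited log2 intensity of the 10 spots of the copied probes of Col1a1 and Col2a1 on each array (filled sunitinib, open vehicle), in the order of their place on the array, with the median as a black bar. Single spots of sunitinib replicate 2 fall to 14.46 for Col1a1 and 10.76 for Col2a1, and the Col2a1 median is highest in vehicle replicate 1.

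Basement membrane chains form the sheets on which endothelium and epithelium rest. As a class they were centred on 0, with a median of -0.01 over 8 genes, and with slide medians of -0.19 and 0.185 of opposite sign. Of the 8 genes, 3 were lower and 0 higher on both slides (28.0% and 32.1% of all genes). The 6 above the median of all genes had a median difference of -0.10. The ubiquitous type IV chains Col4a1 and Col4a2 assemble with each other and are transcribed from a shared start region in opposite directions. Col4a1 read 13.08 and 13.04 in sunitinib samples, against 13.24 and 13.26 in vehicle samples, a small difference without overlap (-0.19, SE 0.08, adjusted p = 0.383). A second bright Col4a1 probe went the other way, at 12.67 and 12.48 in sunitinib samples, against 11.94 and 12.39 in vehicle samples (difference 0.41, SE 0.17). Features around that second spot differed by 0.47 on slide 1, and with the position trend removed it differed by 0.09.

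Col4a2 read 12.55 and 12.96 in sunitinib samples, against 12.82 and 12.72 in vehicle samples. The difference was -0.015 (SE 0.16, 95% interval -0.42 to 0.39), with opposite signs on the slides (-0.27 and 0.24), and its other probe gave -0.08. As deposited, Col4a1 thus had probes of opposite sign and Col4a2 had slides of opposite sign, and neither gene passed the test. Once the position trend was removed, the brightest Col4a1 probe differed by -0.28 (SE 0.10). The other bright Col4a1 probe stayed above 0, at 0.09, as did the remaining dimmer probe, at 0.10 (SE 0.16). The brightest Col4a2 probe then differed by -0.23 (SE 0.13) and its other probe by -0.245 (SE 0.09). None of these passed (adjusted p = 0.462 to 0.826 in limma).

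Of the restricted type IV chains, which make the networks of kidney, lung and skin, only Col4a4 was well above the floor on these arrays. It read 11.56 and 11.86 in sunitinib samples, against 11.68 and 11.53 in vehicle samples (difference 0.105, SE 0.13, adjusted p = 0.731). Its spot lay among features that differed by -0.63 on slide 2, and with the position trend removed the difference was 0.43 (SE 0.27). Col4a3 and Col4a5 stayed at 8.62 to 9.12 and Col4a6 at 8.98 to 9.20, near the floor.

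Col15a1 and Col18a1 encode the multiplexins, which link basement membranes to the matrix beneath and whose C-terminal fragments (endostatin in the case of Col18a1) are known as inhibitors of vessel growth. Col15a1 read 10.63 and 9.83 in sunitinib samples, against 11.08 and 11.32 in vehicle samples, without overlap. The difference was -0.97 (SE 0.28, 95% interval -1.69 to -0.25, adjusted p = 0.352), with -0.45 on slide 1 and -1.49 on slide 2. Leaving out 1 array gave -0.57 (without sunitinib replicate 2) to -1.37 (without sunitinib replicate 1). Features around it differed by -0.305 and -0.67 on the same slides, and with the position trend removed the difference was -0.48 (SE 0.18). The dim second probe of Col15a1 differed by -0.085.

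Col18a1 read 13.47 and 13.20 in sunitinib samples, against 13.84 and 13.30 in vehicle samples (difference -0.235, SE 0.21, adjusted p = 0.618), with overlap. Its second probe gave -0.09 on each slide. With the position trend removed the brightest probe differed by -0.02, since features around it read -0.42 on slide 1.

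**Figure D3:**
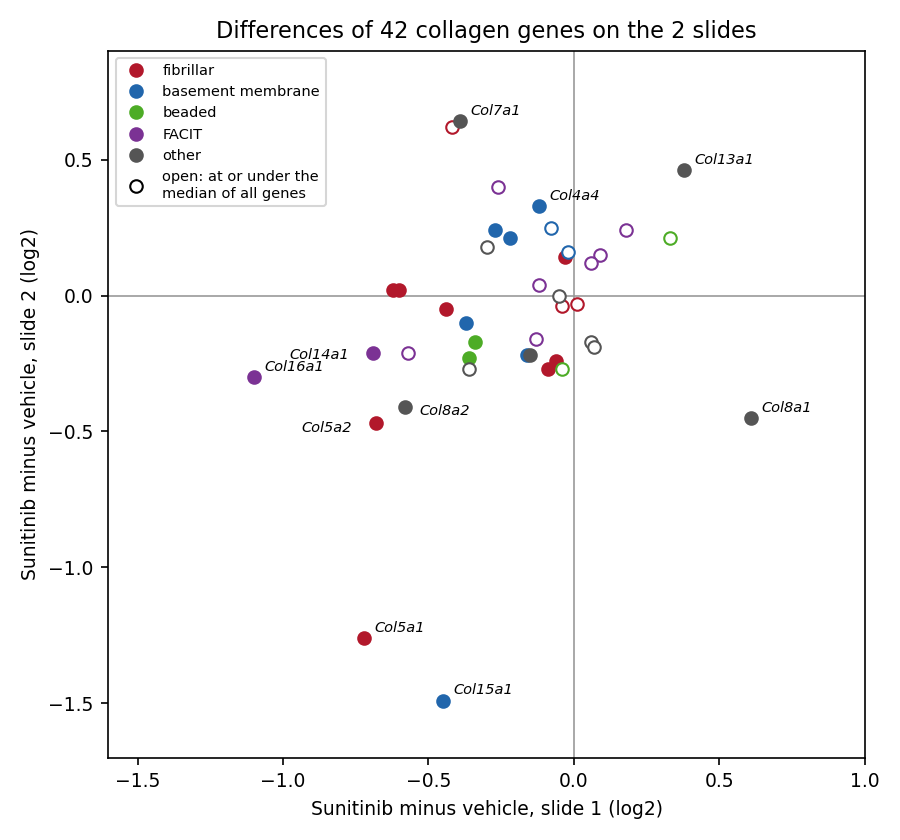
Sunitinib minus vehicle on slide 1 (x axis) and slide 2 (y axis), log2, for the brightest unsaturated probe of each of the 42 collagen genes, coloured by class, with open points for genes at or under the median of all genes. The lower left quadrant holds 19 genes and the upper right 5, and Col5a1 and Col15a1 lie lowest on slide 2.

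Type VI collagen forms beaded filaments around fibroblasts, muscle and fat cells. Col6a1 read 12.37 and 11.95 in sunitinib samples, against 12.73 and 12.18 in vehicle samples (difference -0.295, SE 0.23, adjusted p = 0.580), with overlap. Its partner Col6a2 read 11.46 and 11.30 in sunitinib samples, against 11.80 and 11.47 in vehicle samples (difference -0.255, SE 0.14, adjusted p = 0.456), without overlap, although sunitinib replicate 1 and vehicle replicate 2 were 0.01 apart. Within slides the pair gave -0.36 and -0.34 on slide 1, and -0.23 and -0.17 on slide 2. Without vehicle replicate 1 Col6a1 differed by -0.02 and Col6a2 by -0.09. With the position trend removed Col6a1 differed by -0.52 and Col6a2 by -0.27. Col6a4 and Col6a6, minor chains of the same type, lay at 8.33 to 9.18. Col6a4 was higher on both slides (0.33 and 0.21, difference 0.27, SE 0.09, adjusted p = 0.359 in limma), and by 0.09 with the position trend removed.

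FACIT chains bind to the surface of fibrils and join them to other matrix. Of the 9 genes, 2 were above the median of all genes and both were lower without overlap (22.3% of all genes above that median). Over all 9, both sunitinib arrays lay below both vehicle arrays in 4 and above them in 3 (22.3% and 25.9% of all genes). Col16a1, which is found beside fibrils in skin and smooth muscle, read 12.54 and 12.53 in sunitinib samples, against 13.64 and 12.83 in vehicle samples (difference -0.70, SE 0.27, adjusted p = 0.372). Col14a1, which regulates fibril growth in tendon and skin, read 11.99 and 11.98 in sunitinib samples, against 12.68 and 12.19 in vehicle samples (difference -0.45, SE 0.175, adjusted p = 0.373).

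In both genes the sunitinib arrays agreed closely and vehicle replicate 1 was the high array. Without vehicle replicate 1 the difference of Col16a1 was -0.295 and that of Col14a1 was -0.205, each the weakest value over the arrays left out. Features around both spots differed by at most 0.12 in size on either slide. The other 7 FACIT genes, among them all 3 measured type IX chains of cartilage, Col12a1 of dense connective tissue and Col19a1, lay at 8.24 to 9.24, with differences from -0.39 (Col20a1) to 0.21 (Col9a1).

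Among the remaining chains, Col8a2 and Col13a1 had small errors for the size of their differences. Type VIII collagen forms the hexagonal lattice under vascular and corneal endothelium and is made by activated smooth muscle cells. Col8a2 read 9.20 and 9.30 in sunitinib samples, against 9.78 and 9.71 in vehicle samples, a difference of -0.495 (SE 0.09, 95% interval -0.72 to -0.27, adjusted p = 0.352). The slides gave -0.58 and -0.41, leaving out any 1 array kept it between -0.545 and -0.445, and features around the spot differed by -0.01 and 0.10.

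Col8a1, its partner chain, read 15.15 and 14.93 in sunitinib samples, against 15.90 and 16.10 in vehicle samples on its bright probe. Both sunitinib arrays lay below both vehicle arrays there, but vehicle replicate 2 was saturated, so that no fold is given. The unsaturated Col8a1 probe read 10.95 and 10.42 in sunitinib samples, against 10.34 and 10.87 in vehicle samples, with differences of 0.61 and -0.45 on the slides. With the position trend removed that probe turned from 0.08 to -0.26 (SE 0.18).

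Col13a1, a transmembrane collagen of cell adhesion sites and the neuromuscular junction, was the 1 gene of the 23 with both sunitinib arrays above both vehicle arrays. It read 9.94 and 9.96 in sunitinib samples, against 9.56 and 9.50 in vehicle samples (difference 0.42, SE 0.08, 95% interval 0.21 to 0.63, adjusted p = 0.352). The slides gave 0.38 and 0.46, and leaving out any 1 array kept the difference between 0.39 and 0.45. Its other probe, near the floor, gave -0.045.

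Col7a1, the chain of the fibrils that anchor epidermis to dermis, read 12.79 and 13.09 in sunitinib samples, against 13.18 and 12.45 in vehicle samples (difference 0.125, SE 0.26, adjusted p = 0.846), with opposite signs on the slides. Col23a1, a transmembrane chain, read 9.36 and 8.92 in sunitinib samples, against 9.51 and 9.14 in vehicle samples (difference -0.185, SE 0.20). Col10a1 of growth cartilage, Col17a1 of hemidesmosomes, Col25a1, Col26a1 and Col28a1 stayed between 8.47 and 9.26.

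The start regions of 4 genes are shown, chosen with their values known from among the genes with non-overlapping groups. Col5a1, Col16a1 and Col8a2 had lower and Col13a1 had higher sunitinib values. Other genes with non-overlapping groups are not shown, among them Col15a1 and Col5a2, and the set of start regions had no entry for Col5a2. Each line gives the 100 bases before the annotated start, from RefSeq on GRCm38.p6, and capitals mark GC boxes (GGGCGG on either strand). They lie at chr2:27886325-27886424 (plus strand), chr4:130047740-130047839 (plus), chr4:126286694-126286793 (plus) and chr10:61979109-61979208 (minus), in that order.
Col5a1: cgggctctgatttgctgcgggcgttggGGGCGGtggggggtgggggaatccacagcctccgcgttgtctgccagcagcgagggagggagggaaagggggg
Col16a1: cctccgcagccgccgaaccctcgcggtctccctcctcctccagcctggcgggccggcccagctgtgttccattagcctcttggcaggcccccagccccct
Col8a2: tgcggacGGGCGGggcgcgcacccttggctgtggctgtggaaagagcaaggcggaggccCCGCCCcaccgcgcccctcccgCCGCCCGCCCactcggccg
Col13a1: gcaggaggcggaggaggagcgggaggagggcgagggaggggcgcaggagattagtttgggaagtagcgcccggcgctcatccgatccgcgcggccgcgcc

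The Col8a2 stretch held 4 GC boxes, of which the last ones overlap, and Col5a1 held 1. In the window from 250 bases before to 50 after the start, a GC box stood in 22 of 36 windows of measured collagen genes (61.1%, from 33 genes) and in 35.7% of all 32851 windows. The other motifs searched, on both strands, were the CCAAT box (CCAAT, 36.1% of collagen windows and 37.4% of all), the TATA box (TATAAA, 13.9% and 13.6%) and the AP-1 site (TGANTCA, 2.78% and 7.81%). These are matches of letters and say nothing of binding in these tumours.

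Probes of 1 gene did not always go the same way. Of the 26 collagen genes with at least 2 unsaturated probes, 6 had probes of opposite sign at least 0.3 apart. These were Col4a1 (described above), Col13a1 and Col16a1 with a dim second probe, and Col3a1 (0.055 and -0.285), Col19a1 (-0.185 to 0.175) and Col26a1 (-0.315 and 0.21), whose unsaturated probes were all near the floor.

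Place on the array went with several of these values. On slide 2, bright features (mean of 10 or more) around Col5a1, Col15a1 and Col4a4 read lower with sunitinib by -0.96, -0.67 and -0.63, while on slide 1 those around Col8a1 read 0.50 and those around Col18a1 -0.42. Those 5 genes aside, 18 of the 23 lay among features within 0.3 of no difference on both slides, and 11 of these 18 were lower on both slides. Of all genes above the median, whatever their surroundings, 27.6% were lower on both. The share among genes with such surroundings was not computed. With the position trend removed the median of the 23 was -0.28. Col5a2, Col8a2, Col13a1, Col14a1 and Col16a1 were little altered, at -0.63, -0.54, 0.41, -0.515 and -0.63, and none passed (adjusted p = 0.431 to 0.481 in limma). The part of position in the differences as deposited was not tested beyond this.

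**Figure D4:**
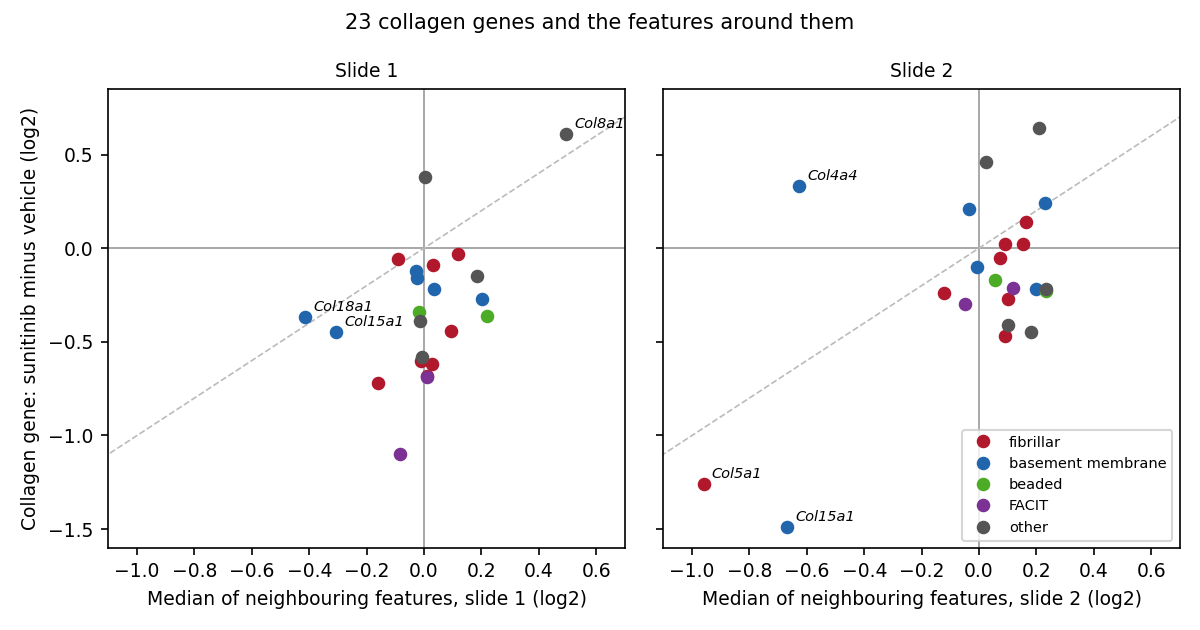
Difference of each of the 23 collagen genes above the median of all genes (y axis, log2) against the median difference of the features of like brightness within a window of 21 by 21 around it (x axis, log2), by slide, with the dashed line marking equal values. Col5a1 and Col15a1 on slide 2 lie at the lower left, at neighbour values of -0.96 and -0.67.

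**Figure D5:**
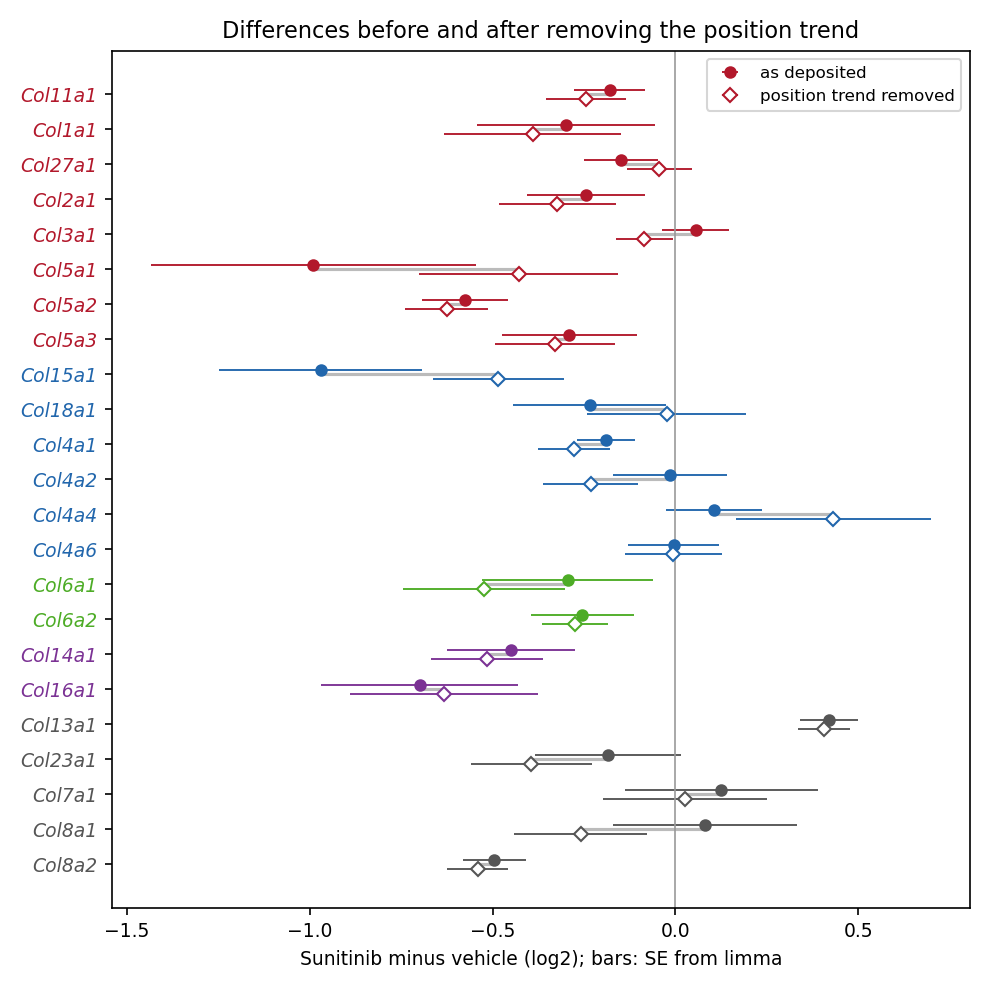
Sunitinib minus vehicle (log2) of the same 23 genes as deposited (filled circles) and with the position trend removed (open diamonds), with SE from limma as bars (n = 2 per group). Col5a1 and Col15a1 shrink from -0.99 and -0.97 to -0.43 and -0.48, while Col5a2, Col8a2 and Col13a1 hardly shift.

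Of the genes that make, bind and break down collagen, 0 were called in limma in any list, with 7 lower and 2 higher at an unadjusted p under 0.05 for biosynthesis, 2 and 1 for receptors and 2 and 1 for breakdown. Over all unsaturated genes 6.34% were lower and 8.46% higher at that level. On both slides, 28.0% of them were lower and 32.1% higher. Of 27 measured genes for collagen biosynthesis, 13 were lower and 5 higher on both slides, with a median of -0.195 against 0.005 for all genes. Lox, the enzyme that starts collagen cross-links, read 9.99 and 9.68 in sunitinib samples, against 11.12 and 10.58 in vehicle samples (difference -1.015, SE 0.21, adjusted p = 0.352). P3h3, a prolyl hydroxylase family member, differed by -0.51 (SE 0.08), P4hb, the disulfide isomerase subunit of prolyl 4-hydroxylase, by -0.81 (SE 0.26), and Adamts3, a procollagen N-proteinase, by 0.255 (SE 0.08) at the floor. P4hb and Lox lay among features that differed by -0.43 and -0.40 on slide 2. P3h3 differed by -0.56, Lox by -0.73, P4hb by -0.51 and Adamts3 by 0.08 once the position trend was removed.

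Of 9 measured collagen receptors, 5 were lower and 2 higher on both slides, with a median of -0.08. Itga11, an integrin chain of fibroblasts that binds fibrillar collagen, read 10.20 and 10.23 in sunitinib samples, against 11.14 and 10.58 in vehicle samples (difference -0.645, SE 0.195, adjusted p = 0.352). Mrc2, which takes up collagen for degradation, differed by -0.42 (SE 0.14) and Ddr1, a collagen-binding kinase, by 0.165 (SE 0.10). Itga2, at 8.69 to 9.04 and so close to the floor, differed by 0.25 (SE 0.095). Itga11 lay among features that differed by 0.45 on slide 1. Removing the position trend gave -0.98 for Itga11, -0.47 for Mrc2, 0.08 for Itga2 and 0.08 for Ddr1.

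Of 7 genes for collagen breakdown, 4 were lower and 1 was higher on both slides, with a median of -0.365. Mmp2, a gelatinase, differed by -0.685 (SE 0.22), Ctsk, the collagen-cleaving cathepsin K, by -0.365 (SE 0.14) and Fap, a peptidase of activated fibroblasts, by -0.265 (SE 0.10). Mmp8, the neutrophil collagenase, differed by 0.295 (SE 0.08) close to the floor, and by 0.12 with the position trend removed.

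Of 10 fibroblast markers measured, 0 were called in limma. At an unadjusted p under 0.05, 4 were lower and 0 higher, against 7.72% and 11.1% of all genes above the median. The markers had a median difference of -0.51. On both slides 6 of them were lower and 0 higher, against 27.6% and 35.3% of all genes above the median. The other 4 (Pi16, Dcn, Cd248 and Dpt) were lower on slide 1 and higher on slide 2, with Cd248 at 0.03 and Dpt at 0.025 overall. The summed intensity of the 10 markers, on the linear scale, was 60961 to 70130 with sunitinib and 79466 to 112834 with vehicle. It was highest in vehicle replicate 1. Pdgfrb, among the brighter markers, read 13.39 and 12.12 in sunitinib samples, against 14.06 and 14.01 in vehicle samples. Features around it differed by -0.66 on slide 2. Its difference was -1.28 (SE 0.41), and -0.85 with the position trend removed. Sums without Pdgfrb were not taken. Fewer fibroblasts and less RNA per fibroblast cannot be told apart in such bulk samples, and the part of either in the collagen values was not tested. Pericyte and smooth muscle markers summed to 21805 to 22547 with sunitinib and 23223 to 33400 with vehicle (9 of 9 measured, median -0.055), with Des at or under the median of all genes. On both slides 3 of the 9 were lower and 3 higher (28.0% and 32.1% of all genes). Kcnj8 read 11.61 and 11.08 in sunitinib samples, against 12.08 and 12.60 in vehicle samples, among features that differed by -0.79 on slide 2. The bright Tagln and Acta2 were lower on slide 1 (-1.12 and -0.57) and higher on slide 2 (0.31 and 0.46).

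Adipocyte markers read higher, with sums of 26202 to 34551 with sunitinib and 17344 to 19559 with vehicle (8 of 9 measured, median 1.625), Lep and Retn lying at or under the median of all genes. On both slides 7 of the 8 were higher and 0 lower (32.1% and 28.0% of all genes), and 0 were called in limma. Fabp4, the brightest of them, read 14.36 and 13.68 in sunitinib samples, against 13.91 and 13.79 in vehicle samples. It differed by 0.17 (SE 0.23), and by -0.11 on slide 2. Sums overlapped between the groups for endothelium (9 of 9 measured, median 0.11) and macrophages (6 of 7, median -0.18). They overlapped too for skeletal muscle (8 of 8, median 0.17) and, from 4 of 7 measured markers, Schwann cells (median -0.035). Epidermis (8 of 8, median 0.07) and cartilage and bone (8 of 8, median 0.05) had most markers at or under the median of all genes (6 and 7 of 8). Their sums were 3762 to 3816 and 3812 to 3847 in sunitinib samples, against 3633 to 3663 and 3187 to 3396 in vehicle samples.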

How the data were processed

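The authors deposited 1 value per feature and single-colour array on a log2 scale. The scale was read from the values (6.75 to 16.34). The submitters' processing notes list limma with no version, and how background was corrected and arrays normalized is not given in these sources. Values were used as deposited. No detection flags were used, and since the floor is not subtracted, differences of dim genes are compressed.

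Features were named by the platform annotation, with symbols updated by gene number in RefSeq (GRCm38.p6). Where 8 or more features had the same gene and accession (217 groups), they were taken as copies of 1 probe and their median was used. That they are copies was inferred, since no probe identities were given. The 18 features that lay over 2 log2 from the level of their group were kept as separate probes. The single spots of Col1a1 and the brighter single spot of Col2a1 are among these. Sunitinib was compared with vehicle over all 43172 probes with lmFit and eBayes in limma 3.58.1 (R 4.3.3), with Benjamini-Hochberg adjustment over all of them and a threshold of 0.05. The fit was also run on simulated data with independent noise, no position trend and planted changes of at least 2 log2 in size. Those changes were larger than the difference of any collagen gene here, so that run does not bear on differences of this size. Nothing says whether replicates were separate animals, so p-values reflect only how far these samples vary, which may be technical, and the number of arrays limits the precision.

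By their titles, the arrays of replicate 1 share a slide, as do those of replicate 2, which pairs them. Within each slide the titles give vehicle and sunitinib different array numbers, so that number and the treatment cannot be told apart. Deviations from the group means correlated at -0.225 within slides. The position trend is the median deviation of features of like brightness (bright means 10 or more) in windows of 21 by 21 features. Feature numbers were taken to run over 85 columns and 532 rows, a layout inferred here that no source states. The design of 2 groups was fitted without a block. Alternatives were the slide as a block, other normalizations, filters and priors, other ways to combine probes, the position trend removed and each array left out, and those restricted to bright genes or to unshifted surroundings were added after the data were seen. Members and lists were chosen with earlier results of these data known. Genes with their arrays were up to 5 per class of smallest p above the median of all genes, main chains and their partners. From the biosynthesis and receptor lists up to 4 were named. All breakdown genes and some cell type markers are named.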

Additional observations from a re-analysis of the deposited data

How the results depend on the processing

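No collagen probe was called under any of the 16 planned settings or with crossed pairing of the replicates (0 of all probes called there). Over all probes limma called 1, and it called 0 with the slide as a replicate block, 0 when the trend over the array was removed as well, 0 without any 1 array, 2 with arrays centred on the median, 2 with quantile normalization and 6 with a trended, robust prior. The block changed no call of a collagen probe. The collagen genes lower on both slides numbered 15 to 22 against 19, and 16 of 37 with shifted surroundings left out. No value of this count was possible without an array. The cause of the following shifts was not tested. The median over collagen genes (-0.06) was -0.15 with dim probes left out and -0.235 over genes above the median of all genes, where it was -0.27 without sunitinib replicate 1, -0.17 without sunitinib replicate 2, -0.035 without vehicle replicate 1 and -0.42 without vehicle replicate 2, and over all 42 it was -0.165 to -0.022 without 1 array. For beaded chains (-0.205) it was -0.255 with dim probes left out, -0.155 with a floor, -0.181 with gene means, -0.275 above the median of all genes, -0.228 with the position trend removed (with and without the replicate block) and -0.267 to -0.055 without 1 array. Above that median it was -0.575 for FACIT and 0.08 for other chains. Of 23 genes, 13 kept their sign throughout. Signs turned for Col1a1 (0.095, single spots), Col3a1 (-0.115 with gene means, -0.086 with the position trend removed, with and without the replicate block), Col4a1 (0.095, gene means), Col4a2 (0.003, quantile), Col4a6 (0.008, quantile) and Col8a1 (-0.259, position trend removed, with and without the replicate block). Without 1 array the ranges crossing 0 were -0.505 to 0.035 (Col18a1), -0.66 to 0.06 (Col1a1), -0.405 to 0.035 (Col23a1), -0.02 to 0.13 (Col3a1), -0.22 to 0.19 (Col4a2), -0.045 to 0.255 (Col4a4), -0.115 to 0.105 (Col4a6), -0.24 to 0.49 (Col7a1) and -0.185 to 0.345 (Col8a1). Saturated probes give no difference here, and differences of dim probes are compressed.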

Other observations

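The spread between copied spots was examined beyond the collagen genes, in the 60 copied probes with a median level of at least 10 and no saturated spot. The sunitinib minus vehicle difference of a spot had a median SD within its probe of 0.25 log2 on slide 1 and 0.34 on slide 2 (range over probes 0.08 to 0.64 and 0.065 to 1.11). On slide 2, 67 of 621 spots lay among features that read lower with sunitinib by more than 0.3, and these spots deviated from the median of their own probe by -0.87 at the median. The 553 spots among features within 0.3 of no difference deviated by 0.01. On slide 1 the 30 spots among lower features deviated by -0.36 and the 35 among higher features by 0.58.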
